A study of Arabidopsis thaliana with 12 samples.

Results

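Of the 22810 probe sets measured in Arabidopsis thaliana roots, 23 were annotated to exactly 1 cytochrome P450 gene other than CYP83A1 and are described here across 3 lines and 2 sulfate supplies. They were chosen by name: the annotation had to give a symbol that starts with CYP, followed by 2 or 3 digits and a letter, and no signal was used. The RefSeq table holds 236 Arabidopsis symbols of that form, so the 23 cover 9.75% of them and the other P450 genes were not analysed here. Of the 22810 probe sets, 8794 were not listed in the annotation used, so any P450 gene on those could not be picked. The partner and marker lists below were limited in the same way. Of the 23, 19 belong to the CYP71B subfamily, and the other 4 are CYP51G2, CYP78A9, CYP79A2 and CYP84A4. Probe sets annotated to a pair of genes at once (CYP79C2 with AT1G58265, and CYP71B20 with CYP71B19) and the probe set of CYP83A1 were left out. So were those named CYP59, CYP71 and CYP718, whose symbols have no letter after the digits. A symbol of that form does not by itself mark a P450 gene.

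Cytochromes P450 are haem enzymes that use oxygen and electrons from NADPH to hydroxylate or otherwise oxidise small molecules. Plants hold many of them, and they serve the synthesis and breakdown of hormones, sterols, phenylpropanoids, fatty acids and defence compounds. In Arabidopsis, P450 enzymes of the CYP79 and CYP83 families start the synthesis of glucosinolates, which are rich in sulfur, and CYP71B enzymes are known mainly from defence metabolism, though most of the subfamily has no assigned reaction.

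The plants were the mutants slim1-1 and slim1-2 and their parent, called P, which is Columbia carrying the SULTR1;2 promoter fused to GFP on a T-DNA; the mutants came from a screen of P for a weak GFP response to sulfur limitation and so carry the same reporter. SLIM1 encodes a transcription factor related to EIN3 that is needed for much of the root's response to low sulfate. Seedlings stood 10 days on agar with 15 µM (S15) or 1500 µM (S1500) added MgSO4, and about 10 µM of sulfate remained in the washed agar per the labels. The 6 groups were slim1-1-S15, slim1-1-S1500, slim1-2-S15, slim1-2-S1500, P-S15 and P-S1500, with 2 arrays each that the labels call biological replicates. Each line stands for 1 isolate, and the labels do not say how many plants went into an extract or whether replicates grew on separate plates, so the p-values measure the spread between these arrays.

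Array medians ran from 65.7 to 175 signal units, and slim1-2-S15 replicate 2 was the brightest. Signals were therefore quantile-normalized, and levels below are log2 normalized signals unless called deposited signals. Without that step the median change over tested probe sets lay between -0.37 and 0.61, depending on the comparison, and every change given here is relative to normalized signals. The root hair markers EXPA7 and EXPA18, 2 of 6 listed, were measured on all 12 arrays above the control bound explained below, and so were 3 of 12 listed shoot markers (RCA, LHCB4.1 and LHCB4.2). No listed endodermis, stele, meristem or root cap marker was named here.

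Whether a P450 gene could be measured was judged against 27 Bacillus subtilis control probe sets on the same array, whose highest level, the control bound, ran from 3.29 to 4.74. Of the 23 genes, 10 lay above it on all 12 arrays, 6 on some arrays and 7 on none. Probe sets entered the tests if their mean level exceeded the 40th percentile of all probe sets, 5.77, and 9 P450 genes did: CYP51G2, CYP71B23, CYP71B26, CYP71B28, CYP71B29, CYP71B34, CYP71B37, CYP71B6 and CYP84A4. CYP84A4, with a mean of 5.92, was nearest above that filter, and CYP78A9, with 5.58, nearest below it. The filter used the mean over all 12 arrays and no group.

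Of the 23 genes, 17 have another P450 gene next to them in the gene order of assembly TAIR10.1, and 16 are on chromosome 3. Neighbours differed in whether they could be measured. In the run CYP71B34, CYP71B35, CYP71B36, CYP71B37 on chromosome 3, CYP71B34 and CYP71B37 were above the bound on all 12 arrays, CYP71B35 on 2 and CYP71B36 on 0. In the run CYP71B21, CYP71B22, CYP71B23 the numbers were 0, 7 and 12. The probe sets of all 23 have the plain suffix _at, and none has a suffix that Affymetrix gives to probe sets shared between genes; cross-hybridisation between these related sequences was not tested.

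The first question was which P450 genes change when sulfate is scarce. None of the 9 tested genes passed the test in any line (limma, adjusted p over 13647 probe sets). In slim1-1, 0 of 9 were called, where 2.2% of all tested probe sets were, and 0 had an unadjusted p under 0.05, where 11% of all did. In slim1-2 the count was 0 of 9 against 3.05% of all, with 2 of 9 (CYP71B29 and CYP71B37) under an unadjusted 0.05 against 14.1% of all. In P it was 0 of 9 against 3.84% of all, with 1 of 9 (CYP84A4) against 15.2%. With 9 genes, these shares would give less than 1 call in each comparison, so a count of 0 does not set the P450 genes apart from the rest. The S15 and S1500 arrays did not overlap for 3 of 9 genes in slim1-1 (38.6% of all tested probe sets), 2 of 9 in slim1-2 (41.1%) and 6 of 9 in P (48.6%). Their median changes were -0.01, 0.02 and -0.01 in slim1-1, slim1-2 and P, beside 0.00, 0.01 and 0.00 over all tested probe sets.

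**Figure D1:**
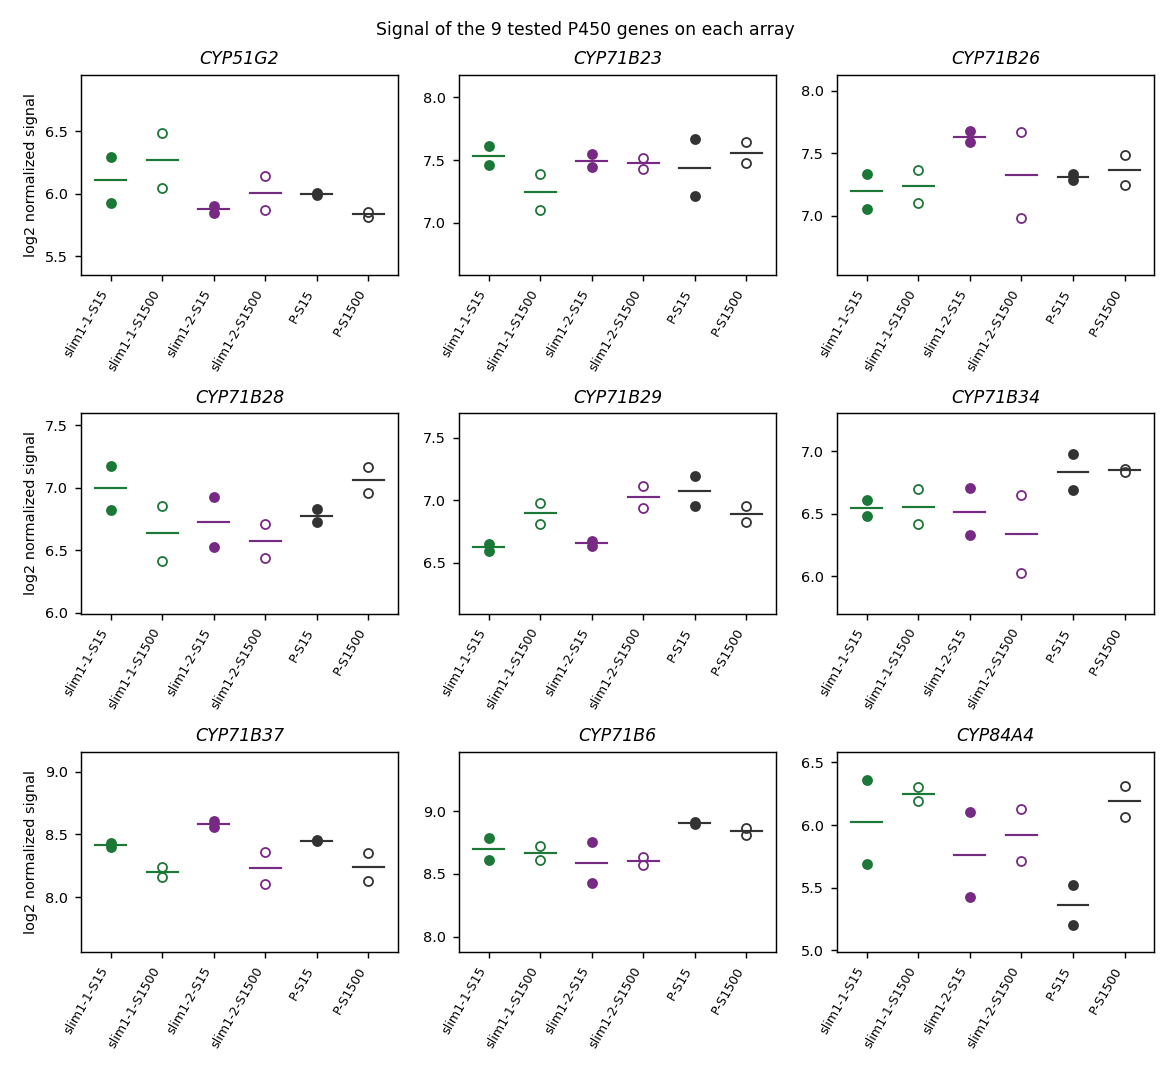
Level of the 9 tested P450 genes on each of the 12 arrays. The y axis is the log2 normalized signal, with the same span but a different position in each panel; filled points are S15 arrays, open points S1500 arrays, and bars the group means (n = 2 arrays). CYP71B37 is higher on S15 than on S1500 in all 3 lines, CYP71B6 is lower in both slim1 lines than in P, and CYP71B29 is lower on S15 in both slim1 lines but not in P; none of these differences passed in a planned comparison.

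CYP71B37, a member of the CYP71B run on chromosome 3 with no reaction assigned here, showed the same direction in every line. Its levels were 8.43 and 8.40 on slim1-1-S15, against 8.16 and 8.24 on slim1-1-S1500. They were 8.61 and 8.56 on slim1-2-S15, against 8.36 and 8.11 on slim1-2-S1500. In P they were 8.45 and 8.45 on S15, against 8.13 and 8.35 on S1500. All 6 S15 arrays lay above all 6 S1500 arrays, a separation that 3.72% of tested probe sets showed in 1 direction or the other. By line the changes were 0.21 ± 0.111 in slim1-1, 0.35 ± 0.111 in slim1-2 and 0.21 ± 0.111 in P (SE, n = 2 arrays per group; adjusted p = 0.531, 0.132 and 0.416 from limma), none of which passed.

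The mean response of the 3 lines, a comparison added after these values were seen, called CYP71B37 higher on S15 by 0.26 ± 0.0642 (SE; 1.19-fold, 95% interval 0.12 to 0.39 on the log2 scale; adjusted p = 0.0217 from limma, 6 arrays on each medium). It was 1 of 9 tested P450 genes called, beside 8.87% of all tested probe sets, and 2 of 9 (with CYP84A4) had an unadjusted p under 0.05, beside 21.1% of all. The comparison was made because this gene had been seen to separate, so its p is not independent of that choice. The call was lost without normalization between arrays, where the change was 0.55 against a median shift of 0.30 (adjusted p = 0.304). It was also lost when any 1 of 6 arrays was left out, with changes of 0.21 to 0.26. These were replicate 1 of slim1-1-S15, of slim1-1-S1500, of slim1-2-S15 and of P-S1500, and replicate 2 of slim1-2-S1500 and of P-S15. Of the 3 shoot markers, 2 (RCA and LHCB4.2) fell in the same comparison by 0.43 and 0.92. Of the 2 root hair markers, 1 (EXPA18) was called higher, by 0.24. By line, 2 of 2 root hair markers were called higher in P, 0 in slim1-1 and 0 in slim1-2. The summed normalized signal of the 3 shoot markers ran from 704 to 797 on slim1-1-S15 and 791 to 843 on slim1-1-S1500, from 804 to 845 on slim1-2-S15 and 1334 to 1352 on slim1-2-S1500, and from 1108 to 1118 on P-S15 and 1310 to 1499 on P-S1500. The sum of the root hair markers ran from 409 to 448 on slim1-1-S15 and 414 to 446 on slim1-1-S1500, from 582 to 607 on slim1-2-S15 and 606 to 695 on slim1-2-S1500, and from 786 to 811 on P-S15 and 434 to 510 on P-S1500. The part of cell makeup in the CYP71B37 change was not tested, and in whole roots fewer cells of a type and less RNA per cell cannot be told apart.

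CYP84A4 had the widest range among the 9. It is a paralog of ferulate 5-hydroxylase and makes a catechol intermediate of the arabidopyrones, phenylalanine-derived alpha-pyrones. Its levels were 6.36 and 5.69 on slim1-1-S15, against 6.31 and 6.19 on slim1-1-S1500. On slim1-2-S15 they were 6.10 and 5.42, against 5.71 and 6.13 on slim1-2-S1500. In P they were 5.52 and 5.20 on S15, against 6.31 and 6.07 on S1500. The P groups did not overlap, beside 48.6% of all tested probe sets, and those of each slim1 line did overlap. The P change of -0.83 ± 0.272 (SE, n = 2 arrays per group; 95% interval -1.41 to -0.24) did not pass (unadjusted p = 0.00879, adjusted p = 0.127 from limma). Those of slim1-1 and slim1-2 were -0.23 (95% interval -0.81 to 0.36) and -0.16 (-0.74 to 0.42). Of 19 listed partner genes of phenylpropanoid metabolism 2 were tested. F6'H1, the dioxygenase of scopoletin synthesis, fell in P by 0.43 (adjusted p = 0.0361 from limma), and HCT, the hydroxycinnamoyltransferase of the lignin pathway, changed by 0.16 (adjusted p = 0.371).

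The second question was whether the response depended on the line. The difference of response (the mean of both slim1 responses minus that of P) was called for 0 of 9 P450 genes, where 0.938% of all tested probe sets were called, and 2 of 9 had an unadjusted p under 0.05, beside 9.14% of all. These 2, CYP71B28 and CYP71B29, are next to each other on chromosome 1 and differed in opposite directions. CYP71B29 had levels of 6.65 and 6.59 on slim1-1-S15, against 6.97 and 6.81 on slim1-1-S1500. On slim1-2-S15 it had 6.67 and 6.64, against 7.11 and 6.94 on slim1-2-S1500. In P it had 7.19 and 6.96 on S15, against 6.95 and 6.83 on S1500. Every S15 array was thus below every S1500 array in both slim1 lines, while in P the nearest S15 and S1500 arrays were almost level. Within a line, the media did not overlap for 38.6% of all tested probe sets in slim1-1 and 41.1% in slim1-2. The changes were -0.27, -0.37 and 0.18 in slim1-1, slim1-2 and P (adjusted p = 0.534, 0.225 and 0.605 from limma), and the difference of response was -0.51 ± 0.173 (SE; 95% interval -0.88 to -0.13; adjusted p = 0.328 from limma); none of these passed. In the same comparison both tested root hair markers were called lower, EXPA7 by -0.86 and EXPA18 by -0.81.

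CYP71B28 had levels of 7.17 and 6.82 on slim1-1-S15, against 6.86 and 6.42 on slim1-1-S1500. On slim1-2-S15 it had 6.52 and 6.93, against 6.71 and 6.44 on slim1-2-S1500. In P it had 6.83 and 6.73 on S15, against 7.16 and 6.96 on S1500. The media overlapped in both slim1 lines and did not overlap in P, beside 48.6% of all tested probe sets. Its P change was -0.28 (adjusted p = 0.551 from limma). Its difference of response was 0.54 ± 0.237 (SE; 95% interval 0.03 to 1.05; adjusted p = 0.503 from limma). For CYP84A4 the difference was 0.64 with an interval of -0.08 to 1.35 (adjusted p = 0.617 from limma), so its interval reached past a 2-fold difference. The difference of response and the P response share the P arrays.

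**Figure D2:**
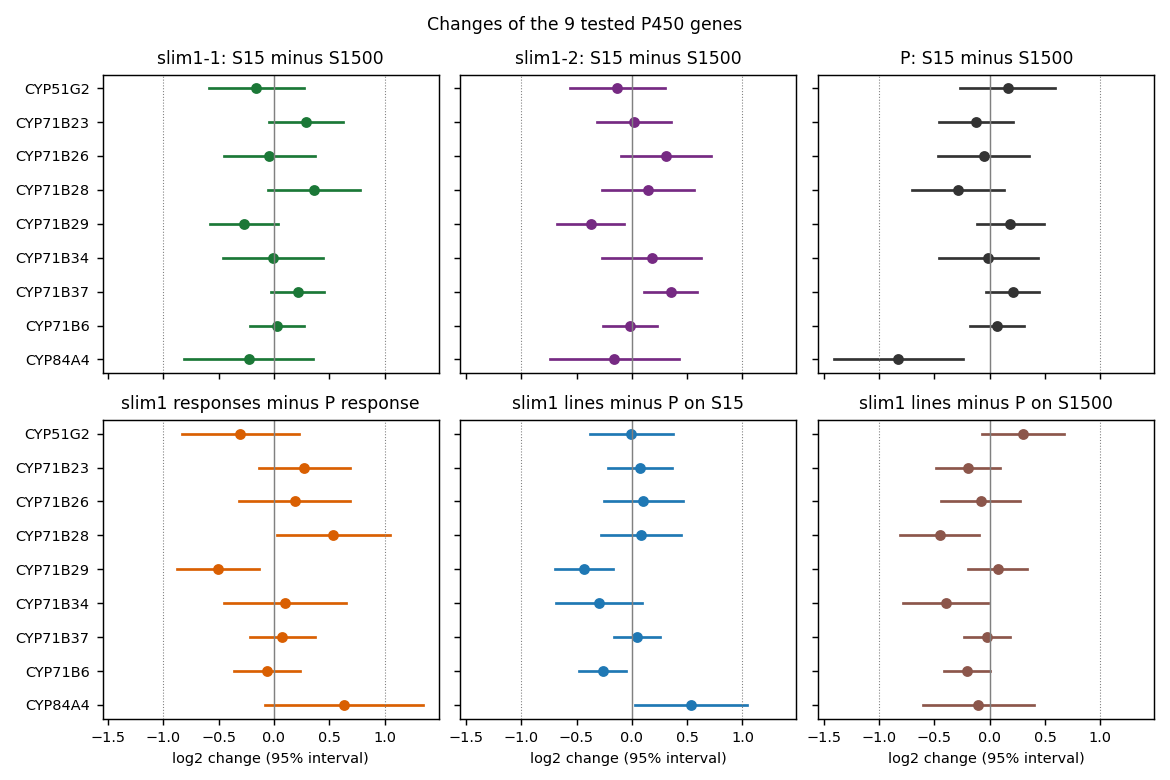
Log2 changes of the 9 tested P450 genes in 6 comparisons. Points are fitted changes, bars their 95% intervals, the solid line marks 0 and the dotted lines a 2-fold change. No change passed the test, and the points lie between -0.83 and 0.64.

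The third question was which genes differ between the slim1 lines and P on 1 medium. On S15, 0 of 9 were called, where 2.17% of all tested probe sets were, and 3 of 9 (CYP71B29, CYP71B6 and CYP84A4) had an unadjusted p under 0.05, beside 14.3% of all. On S1500, 0 of 9 were called against 1.08% of all, with 2 of 9 (CYP71B28 and CYP71B34) under an unadjusted 0.05 against 12.9%. The slim1 and P arrays did not overlap for 2 of 9 genes on S15 (23.8% of all tested probe sets) and 4 of 9 on S1500 (20.4%). The lowest adjusted p of any P450 gene in the planned comparisons was that of CYP71B29 on S15, which was 0.44 lower in the slim1 lines (-0.44 ± 0.122, SE; 95% interval -0.70 to -0.17; adjusted p = 0.0903 from limma). Its 4 slim1 arrays ran from 6.59 to 6.67 and its 2 P arrays from 6.96 to 7.19. Called lower in the slim1 lines on S15 were also both tested root hair markers (-0.74 for EXPA7 and -0.58 for EXPA18) and 2 of 3 tested shoot markers (-0.59 for RCA and -1.18 for LHCB4.2), whose summed signals are given above with CYP71B37. The part of cell makeup in the CYP71B29 values was not tested.

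CYP71B6 converts indole-3-acetonitrile, a breakdown product of indole glucosinolates and an intermediate of camalexin synthesis, toward indole-3-carboxylic acid. Its levels were 8.61 and 8.79 on slim1-1-S15 and 8.61 and 8.72 on slim1-1-S1500. On slim1-2 they were 8.43 and 8.75 on S15 and 8.63 and 8.57 on S1500. In P they were 8.92 and 8.90 on S15 and 8.81 and 8.87 on S1500. All 8 slim1 arrays lay below all 4 P arrays, a separation by line that 1.77% of tested probe sets showed in 1 direction or the other. The difference was -0.26 ± 0.0977 on S15 and -0.20 ± 0.0977 on S1500 (SE; adjusted p = 0.221 and 0.401 from limma), and neither passed.

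Averaged over both media, another comparison added after the values were seen, CYP71B6 differed by -0.23 ± 0.0691 (SE; 95% interval -0.38 to -0.09; unadjusted p = 0.00443, adjusted p = 0.0883 from limma). In that comparison 0 of 9 P450 genes were called, where 2.77% of all tested probe sets were, and 2 of 9 (CYP71B34 and CYP71B6) had an unadjusted p under 0.05, beside 18.4% of all. Without slim1-2-S15 replicate 2, the brightest array, CYP71B6 was called at -0.28 (adjusted p = 0.0377); it was not called when any of the other 11 arrays was left out, and the adjusted p over all 12 such fits ran from 0.0377 to 0.263. Of the 3 shoot markers, 2 (RCA and LHCB4.2) were called lower in the slim1 lines in the same comparison, with changes of -0.59 and -0.80. The mutants were not alike in this. LHCB4.2 was 7.57 and 7.50 on slim1-2-S1500, overlapping P-S1500 with 7.68 and 7.41. The third marker, LHCB4.1, was higher on slim1-2-S1500 (8.73 and 8.88) than on P-S1500 (8.57 and 8.56). The part of these markers in the CYP71B6 values was not tested.

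CYP71B34, the first gene of the run that ends in CYP71B37, also had lower slim1 means on both media. Its levels ran from 6.41 to 6.70 on the 4 slim1-1 arrays and from 6.03 to 6.70 on the 4 slim1-2 arrays, against 6.69 to 6.98 on the 4 P arrays, with a slight overlap. The difference from P was -0.30 on S15 and -0.40 on S1500 (adjusted p = 0.489 and 0.37 from limma).

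The 2 mutants were also compared with each other. On S15, 0 of 9 P450 genes were called for slim1-1 against slim1-2, where 0.183% of all tested probe sets were, and 1 of 9, CYP71B26, had an unadjusted p under 0.05, beside 6.02% of all. CYP71B26 had 7.34 and 7.06 on slim1-1-S15, against 7.59 and 7.68 on slim1-2-S15, a difference of -0.44 ± 0.191 (SE; adjusted p = 0.781 from limma). On S1500, 0 of 9 were called against 1.69% of all, with 0 of 9 under an unadjusted 0.05 against 11.1%.

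CYP71B23 and CYP51G2 had no unadjusted p under 0.05 in the 8 planned comparisons. CYP71B23 ran from 7.10 to 7.67 over all 12 arrays. CYP51G2 is a relative of the sterol 14-demethylase gene and a transcribed pseudogene in the RefSeq table, yet its signal was above the control bound on all 12 arrays, from 5.82 to 6.49 (41.4 to 111 deposited signal units). Whether its probes also bind transcripts of related genes was not tested.

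Across the 8 planned comparisons the 9 genes gave 72 changes, from -0.83 to 0.64, and 0 of them reached 2-fold. The 95% interval stayed within a 2-fold change either way for 68 of the 72. The other 4 were those of CYP84A4 in P, on S15 and in the difference of response, and of CYP71B28 in the difference of response. The interval included 0 for 61. The standard errors bound what could be seen: the median SE in a single-line response was 0.191 for these genes and 0.137 over all tested probe sets.

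Partner genes in the glucosinolate pathway, which itself has P450 steps, moved on the same arrays. Of 23 listed partners 3 were tested. In slim1-1 3 of 3 were called lower, in slim1-2 2 of 3 and in P 3 of 3 (limma, adjusted over all tested probe sets). Of all tested probe sets, 2.2%, 3.05% and 3.84% were called in these lines, in either direction. The list was chosen with earlier results of these data known. BCAT4, the aminotransferase that starts methionine chain elongation, changed by -3.76, -3.19 and -5.12, while UGT74B1 in slim1-2 changed by 0.04. The 1 glucosinolate P450 gene among the 23, CYP79A2, which turns phenylalanine into the oxime precursor of benzylglucosinolate, was below the control bound on all 12 arrays (0.5 to 4.3 deposited signal units), so no change could be given for it. Of 14 listed suberin partners 1, FACT, was tested. FACT, a fatty alcohol caffeoyl transferase, was not called in any single line and was called higher on S15 in the added mean response of the 3 lines, by 0.28 (adjusted p = 0.00101 from limma). The lists of P450 redox partners, brassinosteroid partners and triterpene partners had no gene named here.

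**Figure D3:**
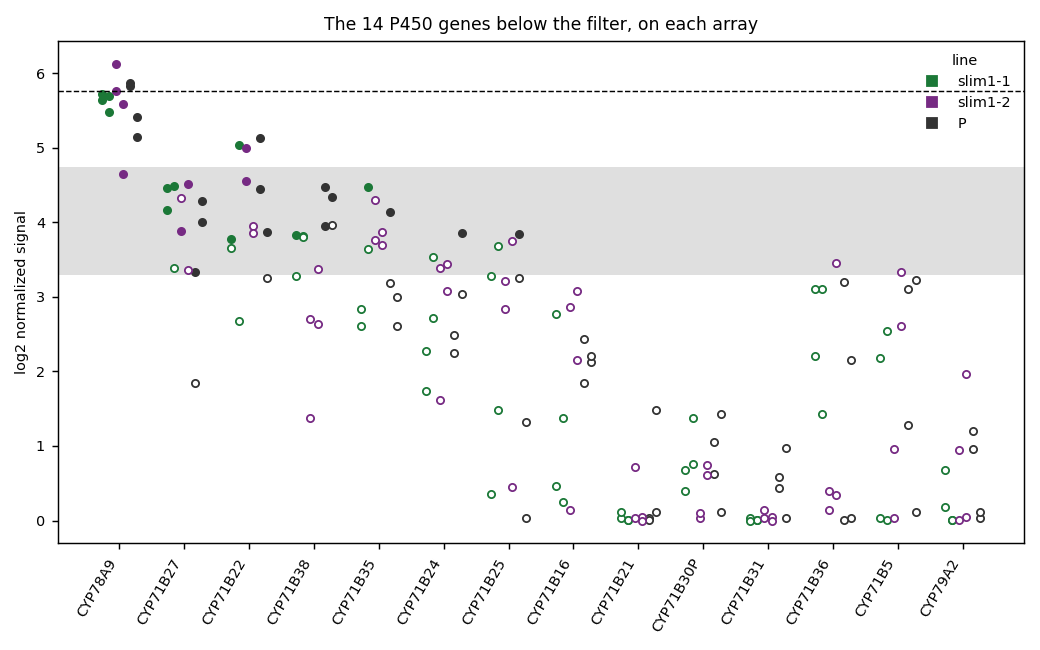
Level of the 14 untested P450 genes on each of the 12 arrays, as log2 normalized signal. Within a gene, points run from slim1-1-S15 and slim1-1-S1500 through slim1-2 to P-S15 and P-S1500; filled points are above that array's control bound, whose range is the grey band, and the dashed line is the filter at 5.77. CYP78A9 is above the bound on all 12 arrays, 6 genes are above it on some, and 7 on none.

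Of the 14 untested genes, CYP78A9, whose enzyme promotes the growth of seeds and fruits, was above the bound on all arrays. Its levels were 5.72 and 5.65 on slim1-1-S15, against 5.48 and 5.70 on slim1-1-S1500. On slim1-2-S15 they were 5.76 and 6.13, against 5.58 and 4.65 on slim1-2-S1500. In P they were 5.87 and 5.83 on S15, against 5.14 and 5.42 on S1500. The means were higher on S15 in all 3 lines. For CYP78A9 the media did not overlap in slim1-2 and P, beside 41.1% and 48.6% of all tested probe sets. When all probe sets were tested without a filter, its mean response over the 3 lines was 0.50 ± 0.175 (SE; adjusted p = 0.177 from limma) and did not pass.

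The genes above the bound on some arrays were CYP71B27 (8 of 12), CYP71B22 (7), CYP71B38 (5), CYP71B35 (2), CYP71B24 (1) and CYP71B25 (1). CYP71B27 is a transcribed pseudogene in the RefSeq table. CYP71B38 is noted after its values were seen, as the only gene of the 14 untested whose slim1 arrays all lay below its P arrays. Of all tested probe sets, 1.77% separated by line in 1 direction or the other. CYP71B38 was above the bound on 2 of 4 slim1-1 arrays, 0 of 4 slim1-2 arrays and 3 of 4 P arrays. Its levels ran from 3.28 to 3.83 in slim1-1 and from 1.37 to 3.38 in slim1-2, against 3.96 to 4.47 in P. Since 7 of its 12 arrays were not above the bound, no change between groups is given. When all probe sets were tested without a filter, CYP71B38 did not pass for the slim1 lines against P over both media (adjusted p = 0.174 from limma).

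CYP71B16, CYP71B21, CYP71B30P, CYP71B31, CYP71B36, CYP71B5 and CYP79A2 were below the bound on every array. Their deposited signals ran from 0.3 to 3.0 units for CYP71B21 and from 0.3 to 1.8 for CYP71B31, and the highest value of the 7 was 10.9 units, for CYP71B36 on slim1-1-S15 replicate 2. These values show only that the genes were not distinguishable from the control level in whole roots.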

How the data were processed

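The authors deposited an intensity for each probe set on each array, computed with MAS5 per the submitters' processing notes. Neither its version nor a scaling target is stated in those notes. Signals under 1 were set to 1, log2-transformed and quantile-normalized over 12 arrays. With 64 controls left out, 13647 probe sets had a mean above the 40th percentile and were fitted by limma 3.58.1 in R 4.3.3 with a mean for each group, empirical Bayes moderation (eBayes) and an intensity trend; the fit had 6 residual degrees of freedom, and the prior added 7.76. Two-sided p-values were adjusted by Benjamini-Hochberg over the 13647 in each of the 8 planned and 2 added comparisons. An adjusted p under 0.05 was a call. The number of arrays limits the precision. The procedure was also run on simulated data with independent normal noise, and no result given here rests on that run.

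Members, lists and comparisons were chosen with earlier results of these data known, and 2 comparisons after the members' values were seen. Named genes were called members, the 10 with the highest mean signal and up to 4 per role list; the remaining members were named to account for all 23. All 23 matched the RefSeq table of TAIR10.1 by gene ID, used for symbols and neighbours. Role lists for P450 genes held 5 members (CYP51G2 under its older name CYP51A1, CYP71B6, CYP78A9, CYP79A2 and CYP84A4), and the other 10 role lists held none. The alternatives changed 1 choice at a time: centring on medians, signals as deposited, a pseudocount of 16, testing every probe set, a stricter filter (60th percentile), a prior without trend, a replicate block, and 1 array fewer.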

Additional observations from a re-analysis of the deposited data

Results flagged for a closer look

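For CYP71B29 every S15 array lay below every S1500 array in slim1-1 and in slim1-2, and none did in P, where both S15 arrays were above, the nearest pair almost level (6.96 against 6.95). Within a line, the media did not overlap for 38.6% of all tested probe sets in slim1-1, 41.1% in slim1-2 and 48.6% in P. For the difference of response, 9.14% of all had an unadjusted p under 0.05 from limma. No line's own change passed: -0.27, -0.37 and 0.18 in slim1-1, slim1-2 and P, the last with a 95% interval of -0.12 to 0.49. The difference of response was -0.51 on the log2 scale (95% interval -0.88 to -0.13; unadjusted p = 0.0114, adjusted p = 0.328 from limma), and the test of that difference did not pass.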

How the results depend on the processing

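The count of called P450 genes was 0 in each of the 8 planned comparisons under all 19 alternatives, counting each array left out as 1; the lowest adjusted p of any P450 gene in those fits was 0.0672 (the slim1 lines set against P on S15). For the mean response of the 3 lines, with 1 call (CYP71B37), the count was 0 with signals as deposited and 0 to 1 when 1 array was left out. For both slim1 lines against P over both media, with 0 calls, it was 0 to 1 when 1 array was left out. Samples were not treated as paired by replicate number. Between groups, the differences of replicate 1 and replicate 2 over tested probe sets correlated at -0.12 to 0.23, with 4 of 15 pairs of groups above 0.1. Such correlations cannot show whether some groups were handled together. With the replicate number as a block the counts stayed at 0 in the planned comparisons and at 1 in the mean response (CYP71B37, adjusted p = 0.0269). The signals carry no detection calls here, so the 7 genes below the control bound have no measured change.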
